A study of Mus musculus with 24 samples.

Results

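Wild-type (WT) mouse embryonic fibroblasts (MEFs) were deprived of oxygen and glucose together (OGD) for 12 h, at 1% oxygen in medium without glucose, and their RNA was compared with that of untreated WT MEFs. The samples were chosen by their labels: 2 arrays of WT cells under OGD and 2 of untreated WT cells, 4 of the 24 arrays of the study. A further 4 WT arrays gave the response to each deprivation alone, with 2 arrays of oxygen deprivation (OD, 12 h at 1% oxygen) and 2 of glucose deprivation (GD, 12 h). The same treatment was also applied to MEFs lacking the ubiquitin ligases Siah1a and Siah2 (KO), with 2 arrays under OGD and 2 untreated. WT and KO cells were kept in the same medium, with β-mercaptoethanol and nonessential amino acids added, and the glucose-free medium held dialysed serum, so that removal of glucose also changed the serum. MEFs are a mixed culture of connective tissue cells from embryos, and the number of embryos or cultures behind the arrays is not given. The methods state that the treatments were done in duplicate, without more detail. The p-values therefore measure the spread between duplicate arrays, which may be technical. That spread was pooled over all 12 groups of the study, which also include cells treated with the drugs tunicamycin or thapsigargin.

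Cells read low oxygen through prolyl hydroxylases (Egln1 to Egln3), which mark the HIF alpha subunits for destruction while oxygen is present. When oxygen falls, HIF accumulates and raises glucose uptake, glycolysis and blood vessel growth. Lack of glucose limits ATP and the sugars that are attached to proteins in the endoplasmic reticulum (ER), and unfolded proteins there activate the sensors PERK, IRE1 and ATF6. PERK phosphorylates the translation factor eIF2 alpha, which slows most protein synthesis but favours translation of ATF4, an activator of genes for amino acid supply and of the death-linked factor CHOP (Ddit3). OGD is used as a model of ischaemia because it combines both signals.

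The arrays were Illumina Mouse-6 BeadChips, whose beads carry probes that capture labelled RNA of matching sequence, and the values are linear intensities in arbitrary units. Unexpressed probes centred on an intensity of 181, and a probe was kept when it passed a background level of 232 on at least 1 of the 24 arrays. Kept probes covered 13414 genes, each represented by its brightest probe. Calls of higher or lower genes needed 2 things: an adjusted p (Benjamini-Hochberg) under 0.05 from limma, fitted on the log2 values of all arrays, and a fold change of at least 2. Errors are standard errors (SE) of log2 fold changes with n = 2 arrays per group. If a group had no array above the background level, the fold is a lower bound computed from that level. Duplicates correlated across probes at an r of 0.955 under OGD and 0.972 in untreated cells. Between the OGD duplicates, 8.50% of kept probes stood 2-fold or more apart, the highest share of the 12 groups, against 4.14% in untreated cells. In the groups treated with tunicamycin or thapsigargin, which cause ER stress, the share was 0.0449% to 0.592%. The pooled spread may therefore understate that between the OGD arrays. The small number of arrays limits the precision of every value, and a gene that was not called is not shown to be unchanged. The fibroblast label was checked on 11 markers, of which 10 lay above background, and their summed intensity was 66766 and 76459 on the untreated arrays and 80348 and 83520 under OGD. The summed intensity of 4 epithelial markers was 930 to 1140 in untreated cells and 1884 to 7638 under OGD. Krt19, a keratin, made up that difference, with intensities of 502 and 247 in untreated cells and 7080 and 1230 under OGD, and its call was lost without OGD replicate 1 or untreated replicate 2. Markers of endothelial and blood cells stayed within 560 to 717 summed over 3 genes each, near background. The sum of 3 muscle markers was 681 to 1025 in untreated cells and 729 to 2626 under OGD, and that of 2 neural markers 3014 to 4223 and 2044 to 3447. The part of such cells in the results was not tested.

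OGD raised 290 genes (2.16% of those measured) and lowered 315 (2.35%) in WT MEFs. The list counts under OGD given below are to be read beside these shares. The median called rise was 2.60-fold and the median called fall 2.33-fold. Among the genes that rose, 35 did so by 4- to 8-fold and 15 by more than 8-fold, while 10 and 3 fell by as much. The largest rise was that of Ndrg1, a hypoxia-induced gene, at 35.9-fold, and the largest fall was that of Txnip, an inhibitor of glucose uptake, at 18.4-fold or more. The duplicates of all 605 called genes did not overlap between the groups, which held for 43.0% of all genes measured. The median log2 fold change over all genes was -0.02. Within the same replicate number the called rises had a median of 1.21 on the log2 scale for number 1 and 1.59 for number 2, and the called falls had medians of -0.97 and -1.55, so that these medians were wider in replicate 2, which did not hold for every list.

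The counts depended on single arrays. Without untreated replicate 2 the fit called 134 genes higher and 131 lower, and without OGD replicate 1 it called 444 and 757. Without OGD replicate 2, 241 genes were higher and 155 lower. Of the called genes, 94 that rose and 75 that fell were called in each of the 4 fits that left out 1 array. Among the genes with values given here they include, for the rises, Ndrg1, Adm, Ddit3, Trib3, Car9, Vegfa, Slc2a1, Hyal1, Ampd3, Egln1, P4ha2 and Ddit4, and, for the falls, Txnip, H1f2, H2ax, Elovl6, Kif2c and Hoxa7.

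**Figure D1:**
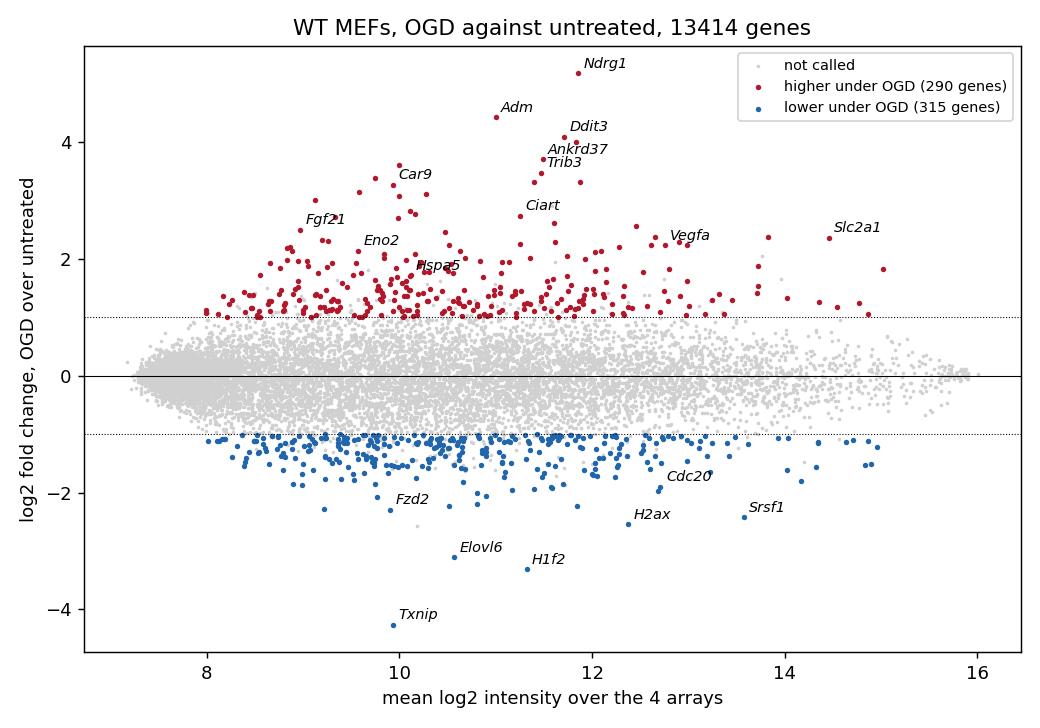
Log2 fold change of each of the 13414 genes under OGD (vertical axis) against its mean log2 intensity over the 4 arrays of WT MEFs (horizontal axis). Red points are the 290 genes called higher, blue points the 315 called lower, and dotted lines mark 2-fold; the highest point is Ndrg1 at 5.17 and the lowest is Txnip at -4.26.

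Among the response lists, that of HIF targets outside glycolysis held the largest share of called rises, 50% against 2.16% of all genes. The lists were written with earlier results of these data known, which limits such a ranking. Of 46 measured HIF targets outside glycolysis, 23 rose and 0 fell, with a median log2 fold change of 1.23 against -0.02 over all genes. The list's median was 1.56 in replicate 1 and 1.03 in replicate 2. Ndrg1 had intensities of 408 and 934 in untreated cells and 21000 and 23400 under OGD, a log2 fold change of 5.17 (SE 0.42, adjusted p = 8.02e-06 from limma). Adm, which encodes the vessel-widening peptide adrenomedullin, went from 717 and 271 to 10900 and 8190 (log2 fold change 4.42, SE 0.58, adjusted p = 0.000364). Ankrd37, an ankyrin repeat gene directly regulated by HIF1, read 841 and 757 without treatment and 14500 and 7380 under OGD (3.70, SE 0.31, adjusted p = 1.02e-05). In each of the 3 genes the lower OGD array stood several-fold above the higher untreated array, and each was called in every fit that left out 1 array.

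Other HIF targets served pH control, vessel growth and the matrix. Car9, a surface carbonic anhydrase that exports acid, rose from 236 and 422 to 4100 and 2260 (log2 fold change 3.27, adjusted p = 0.000458 from limma). Vegfa, the main growth factor of blood vessels, was at 3210 and 3180 in untreated cells and at 20100 and 11200 under OGD (2.23, adjusted p = 0.000375). Its relative Pgf, placental growth factor, rose by 1.48. P4ha2 (2.24) and Plod1 (1.57), which hydroxylate collagen chains in the ER, rose as well. So did Ddit4 (2.26), an inhibitor of the growth kinase mTORC1, Nampt (2.01), the enzyme that salvages NAD, and Ccng2 (1.96), an atypical cyclin linked to cell cycle arrest. The histone demethylases Kdm3a (1.23) and Kdm4b (1.51), whose reaction needs oxygen, rose too. Members that were not called included Lox at 0.67, Ero1a at 0.38, Bnip3 at 0.33 and Pdgfb at -1.30. The count of 23 was 17 to 21 when 1 array was left out, and 2 members were called lower without OGD replicate 1.

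Genes of glucose transport and glycolysis rose in part. Of 22 measured members of this list, 10 rose and 0 fell, with a median of 0.86 (0.99 in replicate 1 and 0.61 in replicate 2). Slc2a1, the glucose transporter GLUT1, was already bright at 9360 and 10500 and reached 46100 and 56600 (2.36, SE 0.23, adjusted p = 3.69e-05 from limma). Called members covered phosphoglucomutase (Pgm1, 2.37), hexokinase (Hk1, 1.78), phosphofructokinase (Pfkp, 2.00, and Pfkl, 1.54), aldolase (Aldoa, 1.25), phosphoglycerate mutase (Pgam1, 1.09) and enolase (Eno2, 2.14). Pdk1, a kinase that inhibits pyruvate dehydrogenase, rose by 1.39, and Gbe1, the glycogen branching enzyme, by 1.37. The values of Pgk1 (0.55), Pkm (0.35), Gapdh (0.28) and Ldha (0.16) did not pass. Without untreated replicate 1 the fit called 4 of the 22, among them Slc2a1, Pgm1, Eno2 and Aldoa.

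The bases just before the start of 2 of these genes are shown because HIF binds a short core, ACGTG or GCGTG, in its targets. Each sequence is the 250 bases upstream of the start that RefSeq lists (GRCm38.p6), on the gene's strand, with matches to the core on either strand in capitals. Ankrd37 lies at chr8:45999851-46000100 (minus strand) and holds 4 matches, the nearest ending 2 bases before the start. The prolyl hydroxylase gene Egln1 lies at chr8:124949255-124949504 (minus strand) and holds 2.
Ankrd37: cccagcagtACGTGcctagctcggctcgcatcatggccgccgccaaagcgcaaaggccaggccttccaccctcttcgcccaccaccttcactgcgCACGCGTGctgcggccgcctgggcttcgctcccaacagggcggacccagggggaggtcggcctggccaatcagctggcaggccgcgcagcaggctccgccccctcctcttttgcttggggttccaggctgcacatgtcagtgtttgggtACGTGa
Egln1: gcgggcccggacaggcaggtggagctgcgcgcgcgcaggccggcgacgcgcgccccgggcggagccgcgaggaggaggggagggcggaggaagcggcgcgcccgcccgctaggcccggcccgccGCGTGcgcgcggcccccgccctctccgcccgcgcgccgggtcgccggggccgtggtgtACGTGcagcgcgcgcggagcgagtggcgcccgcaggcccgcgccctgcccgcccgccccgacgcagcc
The longer run of capitals in Ankrd37 is GCGTG on both strands, overlapping. Such a short core is common: 52.5% of the 10795 measured genes with a listed promoter hold ACGTG or GCGTG in these 250 bases, as do 61% of the genes that rose and 58.6% of those that fell. Among the 25 called HIF and glycolysis members with a promoter the share is 72% (18 genes), but it is 84.2% (16 of 19) among the called members of the ATF4, amino acid and tRNA synthetase lists and 4 of 4 among called ER chaperones, so that the core is not particular to the HIF lists. For ACGTG alone it is 44% (11 genes), against 20.4% of all, 25% of genes that rose and 23% of those that fell. In the called ATF4, amino acid and tRNA synthetase members ACGTG is in 26.3%, and in the called ER chaperones in 50% (2 of 4). GCGTG alone is in 64% of the HIF and glycolysis members, 73.7% of that ATF4 group and 41.6% of all. The letters ACGTG are also part of the E-box CACGTG. It is in 7.98% of all promoters, 10.5% of that ATF4 group and 0 of the HIF and glycolysis members. A match is no evidence of binding in these cells.

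Part of the PERK and ATF4 response rose under OGD, and no member was called by limma under either deprivation alone. Of 33 measured members, 13 rose and 0 fell, with a median log2 fold change of 1.05, and 32 of 33 values were above 0. Ddit3, which encodes CHOP, had intensities of 1300 and 508 in untreated cells and 16600 and 11400 under OGD (4.09, SE 0.40, adjusted p = 3.2e-05 from limma). Trib3, a pseudokinase induced by CHOP and ATF4, went from 1070 and 676 to 9110 and 9760 (3.47, SE 0.28, adjusted p = 8.02e-06). Both OGD arrays lay far above both untreated arrays for each gene. Chac1, an enzyme that breaks down glutathione, rose from 3900 and 3070 to 14800 and 19500 (2.29, SE 0.28, adjusted p = 0.000236). Ppp1r15a (GADD34), the phosphatase subunit that reverses eIF2 alpha phosphorylation, rose by 1.94 and Vldlr, a lipoprotein receptor, by 2.56. Fgf21, a secreted metabolic hormone, lay below background in untreated cells at 219 and 203, and at 716 and 2000 under OGD, at least 5.15-fold higher (adjusted p = 0.000221). Those 6 genes were called in each fit that left out 1 array.

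Transcript of Atf4 itself moved less than that of Ddit3, Trib3 and Chac1. Its intensity was 17900 and 13700 in untreated cells and 26600 and 27400 under OGD, a difference of 0.79 on the log2 scale that passed the adjusted p (0.00532 from limma) but not the 2-fold threshold. Atf3, a partner in this response, was below background in untreated cells at 196 and 190 and at 377 and 426 under OGD, and was called at least 1.73-fold higher (fitted log2 fold change 1.05). The partners Cebpb (1.39), Cebpg (1.19) and Jdp2 (1.14) rose, as did Stc2, a secreted glycoprotein (1.85). Transcript of the kinase PERK (Eif2ak3) stood at 0.04. Without untreated replicate 2 the fit called 7 of the 33 members, and without OGD replicate 2 it called 8. With the replicate number as a block 17 were called.

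**Figure D2:**
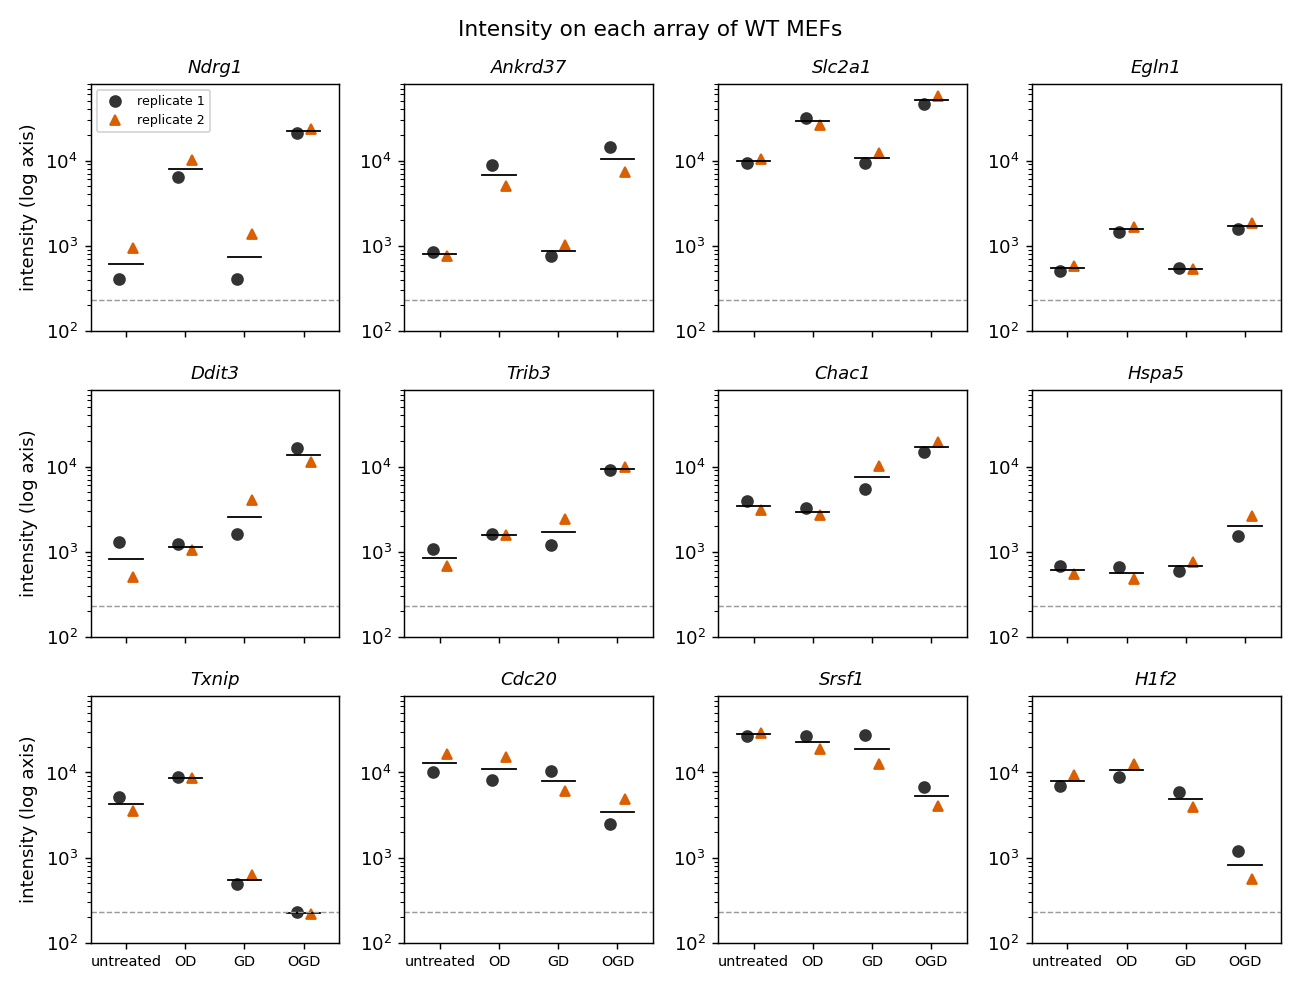
Intensity of 12 genes (log vertical axis) on each array of WT MEFs: untreated, OD, GD and OGD, with circles for replicate 1, triangles for replicate 2, bars for the geometric mean and a dashed line at the background level of 232. Ndrg1, Ankrd37, Slc2a1 and Egln1 are high under OD and OGD, Ddit3, Trib3, Chac1 and Hspa5 are highest under OGD, Txnip is low under GD and OGD, and Cdc20, Srsf1 and H1f2 are lowest under OGD.

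Genes of amino acid supply, which ATF4 controls, also held called rises. Among 15 amino acid transporters 5 rose and 0 fell (median 0.80): Slc7a3 and Slc7a2, which carry arginine and lysine, Slc3a2, the heavy chain of several exchangers, Slc6a9, a glycine carrier, and Slc38a7, a glutamine carrier. Slc3a2 was at 462 and 318 without treatment and at 1100 and 1950 under OGD (1.93, adjusted p = 0.00169 from limma). Slc7a3 rose by 1.98, from 462 and 640 to 964 and 4750, and its replicate 2 carried most of that difference. Without untreated replicate 2 or without OGD replicate 2 the fit called 1 of the 15. Asns, asparagine synthetase, rose from 16500 and 11100 to 32400 and 32800 (1.26, adjusted p = 0.00172). The mitochondrial folate enzymes Aldh1l2 (1.91) and Mthfd2 (1.33) also rose, so that 3 of 13 genes of serine, one-carbon, proline and asparagine synthesis were called (1 without untreated replicate 2). Of 22 cytosolic aminoacyl-tRNA synthetases, Sars (1.18) and Tars (1.02) were called (9.09%, against 2.16% of all genes) and 18 had values above 0. Without untreated replicate 2 the fit called 0 of these synthetases.

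ATF4 with a C/EBP partner binds a composite element whose core is TGATGNAA. The promoters of 2 genes that hold it are shown, Chac1 at chr2:119350992-119351241 (plus strand) and Asns at chr6:7693210-7693459 (minus strand), each the 250 bases before the listed start with the match in capitals. In Chac1 the match is on the opposite strand.
Chac1: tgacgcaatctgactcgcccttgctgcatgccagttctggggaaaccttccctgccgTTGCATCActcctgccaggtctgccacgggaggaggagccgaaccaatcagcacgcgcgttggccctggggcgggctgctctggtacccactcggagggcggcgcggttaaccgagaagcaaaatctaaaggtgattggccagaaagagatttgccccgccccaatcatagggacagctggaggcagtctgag
Asns: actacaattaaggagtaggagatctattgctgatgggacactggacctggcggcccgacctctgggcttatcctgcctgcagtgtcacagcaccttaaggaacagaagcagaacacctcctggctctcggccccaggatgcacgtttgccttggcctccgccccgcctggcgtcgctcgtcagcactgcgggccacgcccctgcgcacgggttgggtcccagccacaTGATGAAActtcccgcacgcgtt
TGATGNAA on either strand was in 2.32% of all 10795 promoters, in 6.78% of those of genes that rose (16 of 236) and in 0.383% of those of genes that fell (1 of 261). Of 19 called members of the ATF4, amino acid and tRNA synthetase lists with a promoter, 5 held it (26.3%). The windows of Trib3, Ddit3 and Cebpb hold no match, which says only that these letters are not within those 250 bases.

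ER chaperones rose in part. Of 35 measured chaperones and factors of ER-associated degradation, 4 rose (11.4%, against 2.16% of all genes) and 0 fell, with a median of 0.45. Each of the 4 was called in every fit that left out 1 array. Hspa5, the ER chaperone BiP, had intensities of 686 and 547 in untreated cells and 1530 and 2630 under OGD (1.71, SE 0.24, adjusted p = 0.000545 from limma). Its co-chaperone Dnajb9 rose from 1740 and 1620 to 5740 and 8320 (2.04, adjusted p = 0.000174). Sdf2l1, a partner of ER co-chaperones, rose from 1090 and 799 to 3590 and 3640 (1.96, adjusted p = 0.000934). Sel1l, a scaffold of the ligase that removes misfolded ER proteins, rose from 2360 and 1790 to 6220 and 5860 (1.55, adjusted p = 5.93e-05). Other chaperones had smaller positive values that were not called, among them Calr at 0.95, Pdia4 at 0.78, Hyou1 at 0.58 and Hsp90b1 at 0.44. Xbp1, whose RNA is spliced by IRE1, rose by 1.06 (adjusted p = 0.0199), and the probe does not tell spliced from unspliced RNA. Xbp1 was called in 1 of the 4 fits that left out an array, the one without OGD replicate 1.

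ATF6 and XBP1 act on Hspa5 through the ER stress response element, a CCAAT box spaced by 9 bases from CCACG. The 250 bases before its start, at chr2:34771840-34772089 (plus strand), hold one, shown in capitals.
Hspa5: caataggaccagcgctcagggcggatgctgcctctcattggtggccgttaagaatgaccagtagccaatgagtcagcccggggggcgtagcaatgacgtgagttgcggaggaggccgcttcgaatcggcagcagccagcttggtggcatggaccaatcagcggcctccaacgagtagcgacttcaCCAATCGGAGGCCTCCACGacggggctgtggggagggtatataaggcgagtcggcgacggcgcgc
The element was in 14 of the 10795 promoters, 0.13%. The windows of Sdf2l1 and Dnajb9 hold no exact match.

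Txnip gave the largest fall. The protein binds thioredoxin and blocks glucose uptake, and its gene is activated by MondoA and ChREBP when glucose is plentiful. Its intensity was 5220 and 3510 in untreated cells and 231 and 216 under OGD, at or below background, so that it was at least 18.4-fold lower (adjusted p = 2.2e-08 from limma). Under GD it was at 486 and 624 and called lower by -2.96, the only gene called under GD, whereas under OD it was at 8840 and 8620 and called higher by 1.03. The duplicates of the 4 WT conditions did not overlap for this gene, with OD highest and OGD lowest. Arrdc4, another glucose-responsive gene of the same family, had values of -0.61 under OGD and -2.17 under GD that were not called. Of the 20 measured glucose-sensing and energy stress genes, Txnip was the only one called under OGD, and the median was -0.05. With the replicate block 1 of the 20 was higher and 2 were lower.

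Mitosis was the list with the most called falls. Of 32 measured members 18 fell and 0 rose, with a median of -1.03, and 30 of 32 were lower under OGD in both replicate numbers. Cdc20, an activator of the anaphase-promoting complex, fell from 10100 and 16500 to 2490 and 4850 (log2 fold change -1.90, SE 0.37, adjusted p = 0.00586 from limma). Kif2c, a motor that takes microtubules apart at kinetochores, fell from 4470 and 5950 to 1820 and 1470 (-1.66, SE 0.20, adjusted p = 0.000181). Both arrays under OGD lay below both untreated arrays in each, as in every called fall. Called members also included the spindle protein Nusap1 (-1.72), the kinases Aurka (-1.68), Cdk1 (-1.23) and Bub1b (-1.62), the centromeric histone Cenpa (-1.62), survivin (Birc5, -1.38) and separase (Espl1, -1.39). Ccna2 (-0.65), Foxm1 (-0.66) and Plk1 (-0.62) had values below 0 that were not called. Arrays measure pooled RNA, so that fewer dividing cells and less transcript per cell cannot be told apart. Without untreated replicate 2 the fit called 7 of the 32, while the other 3 fits with an array left out called 13 to 18.

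The lists of DNA replication and of the G1 phase held fewer calls. Of 36 genes of S phase, Tk1 (thymidine kinase, -1.65), Tyms (thymidylate synthase, -1.10) and Mcm10 (-1.10) fell, with a median of -0.49 and 4 values above 0. That is 8.33% called lower, against 2.35% of all genes. The 3 calls were 5 with the replicate block, 7 without OGD replicate 1, and 1 without untreated replicate 2 or without OGD replicate 2. The values of Pcna (-0.32), Mcm2 (-0.30) and Mcm5 (-0.44) were not called. Ccnd1, cyclin D1, fell by -1.12 from 41600 and 46500 to 22200 and 18500, a call lost without either untreated array or without OGD replicate 2, and with the replicate block 2 of 16 genes of the G1 list were lower. The G1 list had a median of -0.03 and ran from -2.57 to 1.96. Its lowest value was not called, though it lay below the lowest of the mitosis list (-1.90). Lmnb1, the nuclear lamina protein lamin B1, was among the 15 largest falls at -1.97, from 9900 and 17100 to 4520 and 2440.

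Histone genes moved both ways. H1f2, a linker histone, fell from 6900 and 9440 to 1180 and 557 (-3.31, SE 0.34, adjusted p = 4.83e-05 from limma). H2ax, the variant phosphorylated at DNA breaks, fell from 12200 and 13400 to 2970 and 1630 (-2.54, adjusted p = 0.000133). No other of the 15 histone genes of the list was called, and the list's median was -0.12. Histone genes outside the list, named after their values were seen, were also called: H4c6 (1.39), H4c12 (1.28), H4c17 (1.17) and H4c18 (1.12) were higher, and H2ac12 (-1.52), H2ac15 (-1.51) and H3f3a (-1.03) lower. Each of these 7 was lost in at least 2 of the fits that left out an array, and genes of one histone class are near-identical, so that their probes may share RNA. The OD arrays read 8860 and 12700 for H1f2, and the GD arrays 5940 and 3970, so that no WT array of the other conditions was as low as the OGD arrays.

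**Figure D3:**
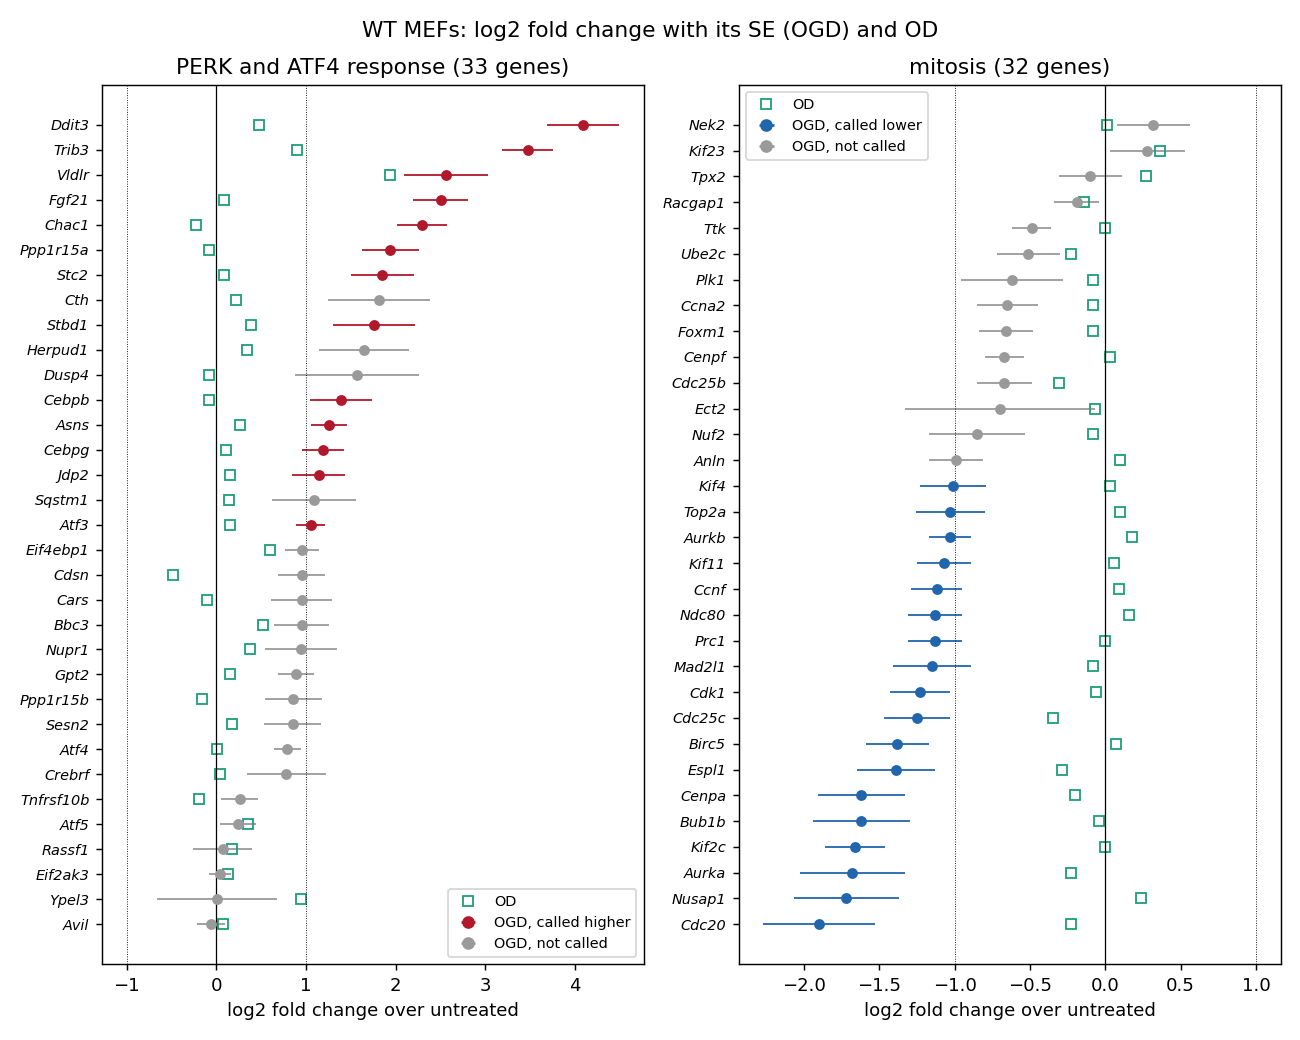
Log2 fold change over untreated WT MEFs (horizontal axis) of the 33 genes of the PERK and ATF4 response and the 32 mitosis genes. Filled points with bars are OGD values with their SE, red or blue where called and grey where not, and open squares are OD values; 13 genes on the left were called higher and 18 on the right lower, and the OD medians were 0.15 and -0.02.

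A few interferon-stimulated genes were lower. Of 30 measured members, 6 fell (20%, against 2.35% of all genes) and 0 rose, with a median of -0.49 and 23 values below 0. Ifit2, an antiviral protein that blocks translation, fell from 1570 and 1790 to 580 and 571 (-1.54, SE 0.21, adjusted p = 0.000493 from limma). Igtp, a GTPase that acts on vacuoles of intracellular parasites, fell from 897 and 672 to 295 and 218 (-1.61, adjusted p = 0.00179). Those 2 were called in each fit that left out an array. Gbp3 (-1.58), Irf1 (-1.31), Ifi35 (-1.04) and Rsad2, at least 2.41-fold lower, were each lost in at least 2 of those fits. The count of 6 was 3 without untreated replicate 1, untreated replicate 2 or OGD replicate 2. Parp14, an ADP-ribosyl transferase raised by interferon in macrophages, was among the 15 largest falls, from 1420 and 1210 to 343 and 213 (-2.28, adjusted p = 0.000201). Class I antigen genes in the list had values near 0 (H2-K1 0.49, B2m 0.17, H2-D1 -0.10).

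Lipid synthesis showed fewer calls. Elovl6, which lengthens saturated fatty acids, fell from 3460 and 5750 to 739 and 362 (-3.11, SE 0.32, adjusted p = 5.02e-05 from limma), and no other of 17 fatty acid synthesis genes was called. Of 18 genes of sterol synthesis and uptake, Dhcr7 (-1.29) and Pmvk (-1.10) fell, and 1 of 18 values was above 0 (median -0.62). The share called lower in this sterol list was 11.1%, against 2.35% of all genes. The spread was wide here: the list's median was -0.07 in replicate 1 and -1.15 in replicate 2. The 2 calls became 4 with the replicate block and 0 without untreated replicate 2 or without OGD replicate 2.

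Further large changes came from genes of stress and growth. Hmox1, a HIF target that degrades haem and was counted in that list, rose from 658 and 264 to 3190 and 2680 (2.81, adjusted p = 0.00856 from limma), and the metal-binding metallothioneins Mt1 (1.83) and Mt2 (1.97) rose. Grem1, a secreted antagonist of bone morphogenetic proteins, rose 16.1-fold, from 1680 and 495 to 9300 and 23000 (adjusted p = 0.00172). Rgcc, a cell cycle regulator, rose by 3.61 and Mtss1, an actin-binding protein, by 3.38. Those 3 stood higher in replicate 2 than in replicate 1 under OGD. Gadd45a, a stress gene raised by p53 and ATF4, had intensities of 1000 and 1420 in untreated cells and 5470 and 25700 under OGD (3.31, adjusted p = 0.0136), and the call was lost without untreated replicate 1, untreated replicate 2 or OGD replicate 2. Ampd3, AMP deaminase, rose in an even manner from 436 and 408 to 3680 and 3560 (3.10, SE 0.28, adjusted p = 2.13e-05). The cell death regulator Bcl2 fell by -1.25 and the mitophagy receptor Bnip3l rose by 1.30, the latter call being lost in every fit that left out an array. In the remaining lists, Stt3a, a subunit of the enzyme that attaches N-glycans, rose by 1.21 and Alg6, which adds glucose to the glycan precursor, fell by -1.38. Among heat shock proteins Cryab, a small chaperone, rose by 1.79 and St13, a partner of HSP70, by 1.10. Of 23 p53 targets Gadd45a and the kinase Plk2 (1.04) rose, and of 34 growth factors and receptors Nrg1, an ErbB ligand, rose by 1.45 beside Vegfa, Pgf and Fgf21. The shares that rose were 8.7% of the p53 list and 11.8% of the growth factor list, against 2.16% of all genes. Plk2 and Nrg1 were called in 1 of the 4 fits that left out an array, and the p53 count was 0 without untreated replicate 1 or 2. Without untreated replicate 2 the counts for heat shock proteins and for N-glycan assembly were 0.

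Signals to and from other cells changed in single genes. The cytokines Il11 (2.13) and Il33 (1.28) rose, and Vcam1, an adhesion molecule for leukocytes (-1.59), and Ccl7, a monocyte chemokine (-1.23), fell. Of their list 9.09% rose and 9.09% fell, against 2.16% and 2.35% of all genes. In this list of 22 the calls higher were 0 without untreated replicate 2 or without OGD replicate 1, and those lower were 5 with the replicate block and 0 without untreated replicate 2 or without OGD replicate 2. Of the Wnt receptors, Fzd2 fell by -2.29 and Fzd7 rose by 1.34. Both calls were lost without untreated replicate 2, that of Fzd2 also without OGD replicate 2 and that of Fzd7 without OGD replicate 1. In the matrix list Has1, a hyaluronan synthase (1.76), and Fn1, fibronectin (1.30), rose and Loxl1, a crosslinking enzyme of elastin, fell from 35100 and 35300 to 16200 and 8700 (-1.57, adjusted p = 0.00157 from limma). Hyal1, a hyaluronan-degrading enzyme, rose from 225 and 283 to 2010 and 1350 (2.71, SE 0.18, adjusted p = 1.35e-06). Egr3, an immediate early transcription factor, fell by -2.23, while Maff (2.02) and the phosphatase Dusp1 (1.82) rose, and with the replicate block 4 genes of this list of 26 were higher and 2 lower. The calls of Has1, Fn1, Egr3 and Dusp1 were lost without untreated replicate 2, and Dusp1 was called in 1 of the 4 fits that left out an array. Hoxa7, a positional transcription factor, fell from 4420 and 4660 to 1270 and 1070 (-1.96, SE 0.20, adjusted p = 5.02e-05).

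Several lists held no call by limma under OGD, against 4.51% of all genes called in either direction. At that share lists of this size would hold few calls. None was called among 34 genes of the mitochondrial respiratory chain (median 0.03, range -0.69 to 0.80) or among 18 collagen chains (median -0.08). In the latter Col1a1 stood at -1.47 and Col5a2 at -1.27. Likewise 0 of 27 genes of ribosome biogenesis, 28 of autophagy and the lysosome and 40 of ER to Golgi transport were called. With the replicate block 1 collagen chain was lower, and 1 gene of autophagy and 1 of ER to Golgi transport were higher. Without OGD replicate 1, 3 collagen chains and 3 genes of ER to Golgi transport were lower, and 2 genes of ribosome biogenesis and 1 of the respiratory chain were higher. At an unadjusted p under 0.05 and 2-fold the fit would call 347 genes higher and 415 lower over all genes.

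Transcripts of the oxygen sensors and of the SIAH ligases were followed by name. By the study's account Siah2 regulates the stability of the sensors PHD1 and PHD3, encoded by Egln2 and Egln3. Egln1 rose from 507 and 578 to 1560 and 1860 (1.65, SE 0.33, adjusted p = 0.00609 from limma). Egln3 had intensities of 258 and 172 in untreated cells and 1160 and 203 under OGD, so that its duplicates disagreed (1.20, SE 0.58, adjusted p = 0.256). Siah2 was at 781 and 505 without treatment and at 1120 and 838 under OGD, a difference of 0.63 (SE 0.29, adjusted p = 0.23) that was not called. Its duplicates did not overlap between the groups, which held for 43.0% of all genes measured. Siah1a (0.06), Siah1b (-0.27), Egln2 (-0.36) and Hif1a (0.33) were not called, and Epas1, which encodes HIF2 alpha, lay below background in both groups. Hipk2, a kinase that SIAH ligases degrade, fell by -1.14 (adjusted p = 0.0479), a call lost without untreated replicate 1, untreated replicate 2 or OGD replicate 2. Among 17 genes of this list 1 rose and 1 fell, 5.88% each, against 2.16% and 2.35% of all genes.

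The comparison with OD and GD asked which part of the response each deprivation gave alone; the 3 comparisons share the untreated arrays. OD raised 33 genes (0.246%) and limma called 0 lower (3 at an unadjusted p under 0.05 and 2-fold). GD lowered Txnip (0.00745%) and limma called 0 genes higher (5 at an unadjusted p under 0.05 and 2-fold). The OD count of 33 was 10 without untreated replicate 1, 15 without untreated replicate 2 and 14 without OD replicate 2, and the GD count was 9 without GD replicate 1. Of the 290 genes raised by OGD, 26 were also called under OD and 0 under GD. The 290 had median log2 fold changes of 1.38 under OGD, 0.25 under OD and 0.18 under GD, and the 315 that fell had medians of -1.22, -0.12 and -0.27. The first set of values in each case was chosen by OGD and so is larger by selection.

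Direct comparisons of OGD with each single deprivation separated the lists. OGD was higher than OD for 190 genes (1.42%) and lower for 303 (2.26%), and higher than GD for 187 (1.39%) and lower for 142 (1.06%). The 493 differences from OD were 1239 without OGD replicate 1, 179 without OGD replicate 2 and 128 without OD replicate 2, and the 329 from GD were 961 and 198 without OGD replicates 1 and 2. Of the 46 other HIF targets, 4 were higher than under OD (Adm, Ndrg1, Hmox1 and Nampt), 1 was lower (Narf), and 22 were higher than under GD. Ndrg1 had OD values of 6450 and 10100 and GD values of 409 and 1360, and OGD exceeded OD by 1.46. Car9 was brighter under OD, at 3860 and 11100, than under OGD, with a difference of -1.11 that was not called. Of the 22 glycolysis genes Eno2 and Gbe1 were higher under OGD than under OD, and 11 were higher than under GD. Eno2 stayed at 402 and 420 with OD, at 385 and 393 with GD, and reached 1680 and 1510 under OGD.

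Some ER stress genes stood above each single deprivation. Of the 33 PERK and ATF4 genes, 10 were higher than under OD and 8 higher than under GD, as were 6 and 4 of the 35 ER chaperones. The shares over all genes were 1.42% higher than under OD and 1.39% higher than under GD. Ddit3 had OD values of 1230 and 1040 and GD values of 1600 and 4080, and OGD exceeded these by 3.61 and 2.44. Trib3 was 2.57 above OD and 2.47 above GD. Hspa5, which OD left at 665 and 477 and GD at 598 and 760, was higher under OGD by 1.83 and 1.58. Chac1 had values of 5400 and 10300 under GD, between the untreated and the OGD arrays. For mitosis, 18 of 32 genes were lower under OGD than under OD and 8 lower than under GD, against 2.26% and 1.06% of all genes. The mitosis list's medians were -0.02 under OD and -0.25 under GD.

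**Figure D4:**
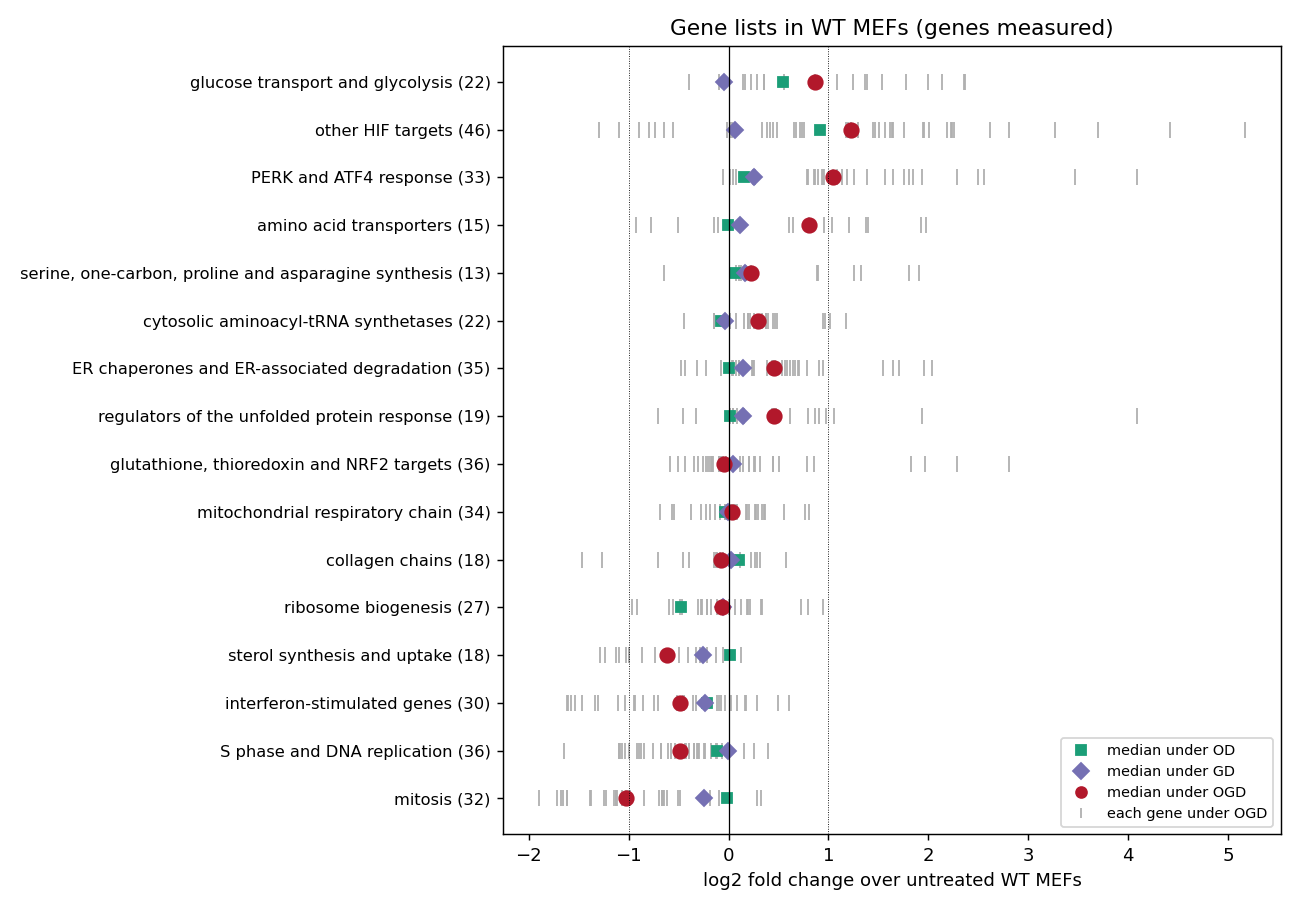
Log2 fold change over untreated WT MEFs (horizontal axis) for 16 gene lists, with the number of genes measured in parentheses. Grey ticks are single genes under OGD, and the circle, square and diamond are the list medians under OGD, OD and GD; glycolysis and other HIF targets have OD medians of 0.54 and 0.92, near their OGD medians, whereas the PERK and ATF4 response has 0.15 under OD against 1.05 under OGD.

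Whether OGD exceeded the sum of OD and GD on the log2 scale was tested as an interaction. Limma called 9 genes (0.0671%), and with the replicate block it called 35, among them all 9. Those above the sum were Eno2 (1.85), Gpr146, an orphan receptor (2.41), Hyal1 (1.62), Peak1, a cytoskeletal pseudokinase (2.56), Slc16a6, a monocarboxylate carrier family member (2.04), and Sstr2, a somatostatin receptor (2.16). Those below it were Txnip (-2.33), H1f2 (-2.97) and Cyp1b1, a cytochrome P450 (-2.52). Peak1 was at 459 and 422 in untreated cells, 415 and 405 with OD alone, 492 and 597 with GD alone and 2620 and 3370 under OGD. Cyp1b1 read 4460 and 3410 without treatment, 4030 and 5390 with OD, 3720 and 5390 with GD, and 1180 and 744 under OGD. In both genes the 3 other conditions overlapped or nearly so and OGD stood apart. The count of 9 was 606 without OGD replicate 1, 30 without OD replicate 1, 4 without untreated replicate 2, 2 without untreated replicate 1 and 0 without OD replicate 2. The interaction of Ddit3 was 1.96 and that of Trib3 1.58, and neither was called.

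KO cells under the same treatment gave a response of the same direction. In KO cells OGD raised 133 genes (0.992%) and lowered 40 (0.298%). With the replicate block these were 188 and 78. Of the 290 genes raised in WT cells, 87 were called higher in KO cells and 285 had the same sign, and of the 315 that fell 23 were called and 312 had the same sign. Over all genes 68.6% had the same sign. The medians of the called genes were 0.91 and -0.67 in KO cells, against 1.38 and -1.22 in WT cells, where they had been chosen. Sample names on the study's heat map carry codes that read like chip and position, without a key or replicate numbers. If these codes are chips, which no sample label states, the KO OGD arrays shared no chip with the untreated KO arrays, while the WT arrays did. The part of a chip in the KO values was not tested. Removing any 1 of the 4 KO arrays gave between 60 and 385 calls in place of 173, with 111 without untreated KO replicate 1, 385 without KO OGD replicate 1, 80 without untreated KO replicate 2 and 60 without KO OGD replicate 2.

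HIF targets rose in KO cells too, with 21 of 46 called (median 1.44), as did 11 of 22 glycolysis genes (median 1.13) and 7 of 33 PERK and ATF4 genes (median 0.82). In KO cells 0.992% of all genes were called higher under OGD and 0.298% lower. Ndrg1 rose by 4.26, Ddit3 by 3.05 and Trib3 by 3.04, and Txnip fell by -4.48. None of the 35 ER chaperones was called in KO cells by limma, with Hspa5 at 0.94, Dnajb9 at 0.76 and Sdf2l1 at 0.68. In the mitosis list 3 of 32 genes fell (Cdc20, Kif2c and Cdk1). A test of KO response against WT response called 3 genes by limma (0.0224%): Slc2a3 (2.75), Hyal1 (-1.74) and Sstr2 (-2.20). With the replicate block it was called for 6. The count was 0 without untreated WT replicate 1 or 2, 1 without untreated KO replicate 1, 127 without WT OGD replicate 1 and 6 without WT OGD replicate 2. Fgf21, at least 5.15-fold higher in WT cells, lay at background in KO cells, at 213 and 220 untreated and 233 and 245 under OGD, and its difference between genotypes was not called. For H1f2 the KO value was -0.34 and the difference 2.97 (adjusted p = 0.0586).

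**Figure D5:**
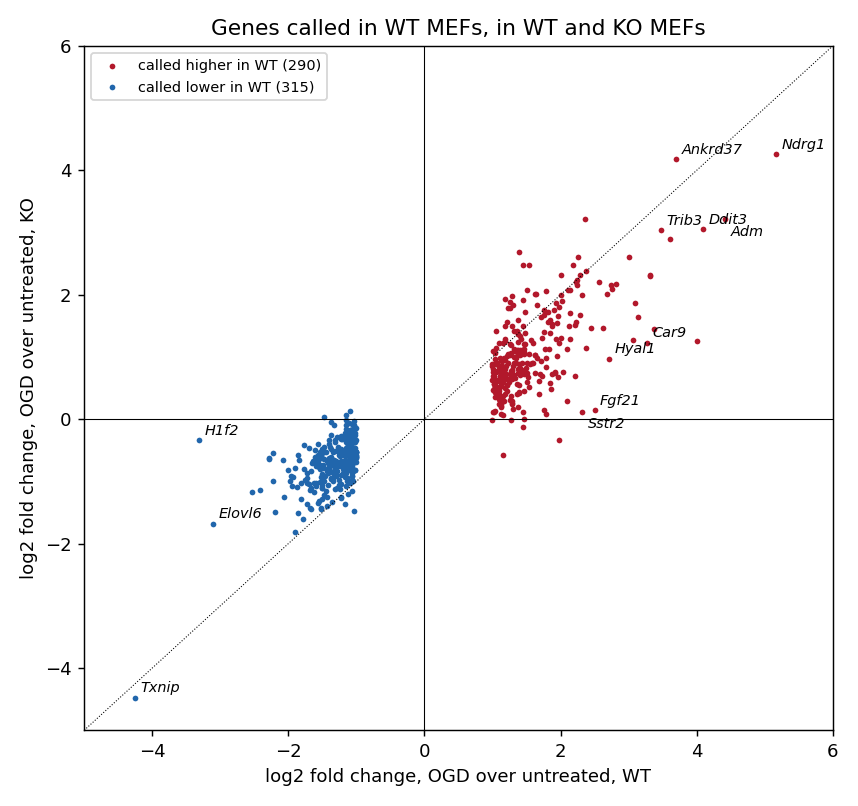
Log2 fold change under OGD in KO MEFs (vertical axis) against that in WT MEFs (horizontal axis) for the genes called in WT MEFs, 290 higher in red and 315 lower in blue; the dotted line marks equal values. Ankrd37 and Txnip lie near the line (4.18 and -4.48 in KO cells), and H1f2 (-0.34) and Fgf21, which is at background there, lie near 0 in KO cells.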

How the data were processed

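RNA of 24 MEF samples in 12 groups of 2 was hybridised to Illumina Mouse-6 BeadChips after biotin labelling. The deposited values are linear intensities that the authors normalized in GenomeStudio (version not given in the sources used here), with no background subtracted. At a given rank the arrays differed by a median of 0.0816%, as after quantile normalization. Values were taken as log2 without further normalization. The background mode of 181 and level of 232 were estimated from the dim probes, and 26709 of 45281 probes (59.0%) were kept. Of several kept probes of a gene the brightest on average was used, and 5491 of 13414 genes had more than 1. limma 3.58.1 in R 4.3.3 fitted 12 group means (12 residual and 3.43 prior degrees of freedom), after a test on simulated data. Figures were drawn with matplotlib 3.10.9 in Python 3.11.15.

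Same-numbered arrays deviated together in all 66 pairs of groups (median r 0.376, range 0.135 to 0.764, and 0.543 for untreated and OGD). The numbers were taken as pairing the samples from this alone, since no label says what a number stands for. Pairing entered only the replicate block, an alternative fit, and the medians within a replicate number. The main fit, which gave the SE and p-values printed for genes, had no term for the number. Codes on the study's heat map that read like chips were not tied to replicate numbers. Genes were named by rule: the 15 highest and 15 lowest called genes under OGD, the 5 largest calls of every list per direction, the 5 highest and lowest of each other contrast, and 16 fixed genes of the oxygen and ER stress responses. Members of a list named with values that were not called, and further list members, were chosen after their values were seen. The gene lists and samples were chosen with earlier results of these data known. A further 24 signal columns and 24 detection p columns whose names match no sample label were not used. Promoter sequences came from RefSeq tables (GRCm38.p6), matched by gene ID for 10795 genes.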

Additional observations from a re-analysis of the deposited data

Results flagged for a closer look

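For 12 values the response differed between settings by limma's test of the difference itself, at an adjusted p under 0.05 and 2-fold. In WT cells, 9 genes responded to removal of glucose by a different amount at 1% oxygen than at normal oxygen. The difference was positive for Eno2 (1.85, adjusted p = 0.0116 from limma), Gpr146 (2.41, 0.0316), Hyal1 (1.62, 0.0253), Peak1 (2.56, 0.0253), Slc16a6 (2.04, 0.0215) and Sstr2 (2.16, 0.0158). It was negative for Cyp1b1 (-2.52, 0.00832), H1f2 (-2.97, 0.0344) and Txnip (-2.33, 0.00832). Txnip was at or below background under OGD and Gpr146 in untreated cells, so that their differences rest on a floor.

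Between KO and WT cells the OGD response differed for 3 genes. Slc2a3, a glucose transporter, was higher by 2.75 in KO cells (adjusted p = 0.00781 from limma), with intensities of 782 and 425 in untreated and 3240 and 4340 in OGD-treated KO cells, and it lay below background in WT cells in both conditions. Hyal1 differed by -1.74 (adjusted p = 0.0278), at 220 and 225 in untreated and 427 and 445 in treated KO cells, so that the untreated KO values lay below background and the difference rests on a floor. Sstr2 differed by -2.20 (adjusted p = 0.0206), with all 4 KO values between 166 and 220, below background. Codes on the study's heat map that read like chips, without a key, differ between the KO arrays under OGD and the untreated KO arrays, and the part of the chip in these 3 differences was not tested.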

How the results depend on the processing

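Of the 605 called genes 1 had the opposite sign with the mean of a gene's probes, and none under the other alternatives. More genes were higher than lower with WT arrays alone (203 and 201), with the mean of probes (232 and 210), without untreated replicate 2 (134 and 131) and without OGD replicate 2 (241 and 155), against 290 and 315. Quantile normalization again or an intensity trend moved no count by over 1.5 times. A fit on the compared groups alone called 0 genes higher and 0 lower under OGD (4 arrays, 2 residual degrees of freedom), 0 under OD, 0 under GD, 1 between OGD and OD, 0 between OGD and GD, 0 for non-additivity, 3 in KO cells and 0 for the KO difference. WT arrays alone gave 201 lower under OGD, 13 under OD, 269 against OD, 165 against GD and 1 for non-additivity. Array weights gave 170 higher and 173 lower, 224 against OD, 122 against GD and 1 for non-additivity. The mean of a gene's probes gave 328 against OD, 14 for non-additivity and 1 for the KO difference. Without the fold threshold 546 genes were higher and 718 lower, 1010 differed from OD, 663 from GD and 293 in KO cells. At an unadjusted p with the 2-fold threshold the counts were 77 for OD, 9 for GD, 512 against GD, 401 for non-additivity, 328 in KO cells and 115 for the KO difference, which was 1 after normexp background correction and 5 with probes above background on both arrays of a compared group.

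With the replicate block, 345 genes were higher and 405 lower under OGD, non-additivity gave 35, KO cells 266 and the KO difference 6. The block kept all 605 calls under OGD and lost no call of the other comparisons.

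With 1 array left out the counts ranged from 134 to 444 higher and 131 to 757 lower under OGD, 10 to 22 under OD, 1 to 9 under GD, 128 to 1239 against OD, 198 to 961 against GD, 0 to 606 for non-additivity, 60 to 385 in KO cells and 0 to 127 for the KO difference. Of the 605 genes, 406 were still called without untreated replicate 1, 238 without untreated replicate 2, 535 without OGD replicate 1 and 278 without OGD replicate 2. The cause of these shifts was not tested. An alternative from un-normalized signals was not run, because those columns match no sample label. Genes below background in a group have only a bound there.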

Other observations

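A pair of gene groups not described above was collected after the values were seen, and so is given as values with no test of the group. Over all genes 2.16% rose and 2.35% fell. SR splicing factors, which bind exons and guide splice site choice, held 4 genes that fell and 0 that rose among 11 measured (median log2 fold change -0.62 under OGD, -0.21 under OD, -0.47 under GD and -0.98 in KO cells under OGD). Srsf1 went from 27300 and 29400 to 6860 and 4070 (-2.42, adjusted p = 0.000587 from limma). Srsf2 went from 33900 and 35100 to 8770 and 11100 (-1.81, adjusted p = 0.00319). Srsf5 fell by -2.23, a call lost without untreated replicate 2, and Srsf6 by -1.56.

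Genes of the circadian clock held 6 that rose and 0 that fell among 14 measured (median 1.05 under OGD, 0.18 under OD, 0.21 under GD and 0.82 in KO cells under OGD). The share that rose over all genes was 2.16%. Nr1d1, the repressor REV-ERB alpha, rose by 2.45, Ciart, a repressor of the clock, by 2.74 and Rora, an activator of Arntl that lay below background in untreated cells, at least 4.21-fold. Bhlhe40 (1.62), Arntl (1.48) and Per1 (1.44) rose as well. The calls of Nr1d1 and Per1 were lost without untreated replicate 2 or without OGD replicate 2, and that of Rora without untreated replicate 2. The OGD, OD and GD arrays were taken after 12 h of treatment, and no time or hour of harvest is given for the untreated cells.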
